A study of Mus musculus with 12 samples.

Results

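The genes described here are 6 that the kidney uses to recover and to make glucose, followed through 4 stages of podocyte injury in whole mouse kidney. They are Slc5a1, Slc5a2, Slc2a1, Slc2a2, Pck1 and Fbp1, 6 of the 56722 genes in the count table. They were chosen by name for their roles and matched on the symbol column, and each symbol matched 1 row. All 6 passed the filter on low counts, and none had a count of 0 in any library.

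All mice were Pod-TRECK, a line with the diphtheria toxin receptor in podocytes, the cells that cover the glomerular capillaries. Controls received no toxin, and the other mice received 100 ng of diphtheria toxin (DT) into the peritoneum 5, 14 or 21 days before the kidneys were taken. There were 3 biological replicates in each of the 4 groups. The promoter that drives the receptor, the age and the sex of the mice are not stated. Controls are described as untreated.

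Glucose passes the glomerular filter and is taken back by the proximal tubule. Slc5a2 encodes SGLT2, the sodium-coupled glucose transporter of the apical membrane in the early part of that tubule, and Slc5a1 encodes SGLT1, the transporter of its late part. Slc2a2 encodes GLUT2, which lets glucose out on the basolateral side, and Slc2a1 encodes GLUT1, a facilitative transporter of many cell types and of other nephron segments. The proximal tubule also makes glucose from lactate, glutamine and other substrates. Pck1 encodes the cytosolic phosphoenolpyruvate carboxykinase that turns oxaloacetate into phosphoenolpyruvate, and Fbp1 encodes the fructose bisphosphatase of a later step.

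Libraries held 31023852 to 46420299 counts. Counts were scaled by TMM factors, which offset a few abundant genes taking up much of a library, and levels are given as CPM, the counts per 1e6 scaled counts of the library, after that scaling. The factors ran from 0.778 to 0.802 in controls, 0.857 to 0.893 at day 5 and 1.31 to 1.32 at day 14. Day-21 replicate 2 stood apart from its group, with a factor of 0.889 against 1.19 and 1.24 in day-21 replicates 1 and 3. The changes of the 6 genes and the counts of the gene lists are therefore also given without it. It was left out after its values were seen, and day 21 then rests on replicates 1 and 3 alone. The standard errors of the 6 genes were smaller in that fit at every stage, so its small adjusted p-values call for caution. Mitochondrially encoded transcripts took 22.4 to 23.7% of counts in controls, 18.2 to 20% at day 5 and 8.98 to 9.46% at day 14. Their share was 11.8% in day-21 replicates 1 and 3 and 21.1% in replicate 2.

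In outline, at day 5 none of the 6 genes had passed the test. At day 14 Slc5a2, Slc2a2, Pck1 and Fbp1 had fallen, and the direction of Slc5a1 depended on the scaling. Slc2a1 was higher at day 14, by a log2 fold change of 0.33 with TMM scaling and 1.05 with library totals alone. The day-14 call of Slc2a2 depended on the scaling. That of Slc2a1 depended on the scaling factors, the tool, the low-count filter and single libraries. At day 21 Pck1 and Fbp1 were still below control and Slc2a1 was higher. Slc5a2 and Slc2a2 were low in replicates 1 and 3 and at the control level in replicate 2.

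The bases just before the start sites of 3 of these genes are shown because they stand for the genes that fell (Pck1, Slc2a2) and the one that rose (Slc2a1). They are the 250 bases upstream of the start site from RefSeq on GRCm38.p6, an older build than the GRCm39 coordinates of the count table. The table of promoters held 5 of the 6 genes, all but Slc5a2. The windows lie at chr2:173152823-173153072 for Pck1, chr3:28697653-28697902 for Slc2a2 and chr4:119108495-119108744 for Slc2a1, all on the + strand, and capitals mark matches to the motifs below.
Pck1: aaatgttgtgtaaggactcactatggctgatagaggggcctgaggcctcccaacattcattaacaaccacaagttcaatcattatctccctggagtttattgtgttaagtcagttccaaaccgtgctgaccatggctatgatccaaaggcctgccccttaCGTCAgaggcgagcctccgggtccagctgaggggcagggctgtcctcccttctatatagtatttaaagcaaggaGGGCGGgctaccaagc
Slc2a2: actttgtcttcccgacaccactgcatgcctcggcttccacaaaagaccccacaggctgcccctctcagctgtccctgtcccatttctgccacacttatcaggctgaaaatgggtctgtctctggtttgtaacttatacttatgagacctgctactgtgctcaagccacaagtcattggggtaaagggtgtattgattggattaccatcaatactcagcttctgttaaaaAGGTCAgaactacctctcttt
Slc2a1: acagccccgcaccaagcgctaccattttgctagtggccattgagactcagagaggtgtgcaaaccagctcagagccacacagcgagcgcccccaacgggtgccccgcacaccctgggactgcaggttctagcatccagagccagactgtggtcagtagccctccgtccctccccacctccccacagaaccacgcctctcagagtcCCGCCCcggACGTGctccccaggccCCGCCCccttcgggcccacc

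A set of 5 motifs was searched on both strands, chosen after matches had been seen. They were TGACG, a core of the cAMP response element, AGGTCA, a core of HNF4 and other nuclear receptor sites, TAAACA, a core of FOXO sites, ACGTG, the core of the hypoxia response element, and GGGCGG, the GC box. Pck1 held TGACG 90 bases and GGGCGG 16 bases before the start site. Slc2a2 held AGGTCA 21 bases before the start site. Slc2a1 held ACGTG at 36 bases and GGGCGG at 45 and 20 bases. The TGACG of Pck1 and the GC boxes of Slc2a1 were read on the opposite strand, and so appear as their reverse complements. In the printed windows matches to different motifs did not overlap. Slc5a1 held ACGTG on both strands of 1 palindrome, and Fbp1 held GGGCGG 84 bases before its start site. Of 32851 promoter windows of the same length, 17.8% held TGACG, 14% AGGTCA, 12% TAAACA, 16.6% ACGTG and 32.7% GGGCGG. The matches are a description of these windows, and binding was not measured.

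Slc5a2 (ENSMUSG00000030781, chr7:127864829-127871602 on GRCm39) fell in most libraries of the later stages. Its level was 411, 384 and 436 CPM in the controls and 336, 336 and 281 CPM at day 5. It was 55.7, 55.8 and 69.5 CPM at day 14, and 77.2, 407 and 38.3 CPM at day 21. The day-5 and day-14 libraries all lay below all controls, and day-21 replicate 2 lay within the control range. At day 14 the log2 fold change against control was -2.76 ± 0.67 (SE, adjusted p = 0.00435, n = 3 per group). At day 5 it was -0.37 ± 0.62 (adjusted p = 0.746), and at day 21 it was -1.24 ± 0.63 (adjusted p = 0.131), neither past the threshold of 0.05. Leaving out day-21 replicate 2 gave a day-21 change of -2.84 ± 0.25 with an adjusted p of 1.40e-06, resting on replicates 1 and 3 alone. In that fit the day-5 change was still not called, with an adjusted p of 0.179. A fit of the 6 libraries of control and day 5 alone called the day-5 fall, at -0.38 ± 0.08 with an adjusted p of 0.00751. Rusf1, on the opposite strand, overlaps the 3′ end of Slc5a2 and had 451 to 769 counts per library, and the strand setting of the counting is not given, so reads there may be shared.

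Slc5a1 (ENSMUSG00000011034, chr5:33261563-33320214) moved far less than Slc5a2. Its level was 71.1, 66 and 74.5 CPM in controls, 68.6, 66.4 and 78.2 CPM at day 5, 57.7, 54.4 and 53.1 CPM at day 14, and 62, 84.2 and 55.2 CPM at day 21. The day-14 libraries lay below all controls, while those of day 5 overlapped the control range and those of day 21 spanned it. The day-14 change was -0.36 ± 0.14 with TMM scaling (adjusted p = 0.0428), but 0.37 with library totals alone (adjusted p = 0.00472), so its direction is set by the scaling. The call was also lost when 7 of the 12 libraries were left out singly, with adjusted p between 0.00127 and 0.11. Those 7 were control replicates 1 and 3, day-5 replicates 1 and 2 and all 3 day-14 replicates. At day 5 the change was 0.01 ± 0.14 (adjusted p = 0.97). At day 21 it was -0.07 ± 0.14 with TMM scaling (adjusted p = 0.689), -0.27 ± 0.09 without day-21 replicate 2 (adjusted p = 0.0159), and 0.37 with library totals alone (adjusted p = 0.00773).

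Slc2a2 (ENSMUSG00000027690, chr3:28752052-28785508), the basolateral partner of the apical transporters, fell at day 14. Its level was 193, 214 and 211 CPM in controls and 200, 188 and 179 CPM at day 5. It was 101, 101 and 87.6 CPM at day 14, and 73, 204 and 70.9 CPM at day 21. All day-14 libraries lay below all controls, and at day 21 replicates 1 and 3 lay lower still, while replicate 2 was inside the control range. The change was -0.12 ± 0.33 at day 5 (adjusted p = 0.844), -1.09 ± 0.33 at day 14 (adjusted p = 0.0144) and -0.83 ± 0.33 at day 21 (adjusted p = 0.0619). Library totals alone gave -0.37 at day 14, with an adjusted p of 0.168, so that call depends on the scaling while the direction did not. Without day-21 replicate 2 the day-21 change was -1.52 ± 0.09 with an adjusted p of 4.14e-08. The overlapping 1700112D23Rik on the opposite strand had 10 to 34 counts per library.

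Slc2a1 (ENSMUSG00000028645, chr4:118965908-118995180) was the member of the group that was higher at the later stages. Its level was 35.2, 32.5 and 32.5 CPM in controls and 39.1, 34.4 and 42.2 CPM at day 5. It was 40.8, 39.9 and 44.9 CPM at day 14 and 52.5, 44.6 and 64.1 CPM at day 21. The day-14 and day-21 libraries all lay above all controls, day-21 replicate 2 included. The change was 0.21 ± 0.12 at day 5 (adjusted p = 0.306), 0.33 ± 0.12 at day 14 (adjusted p = 0.0418) and 0.69 ± 0.13 at day 21 (adjusted p = 0.00298). It was 0.80 ± 0.10 at day 21 without day-21 replicate 2 (adjusted p = 3.35e-05). With library totals alone it was 1.05 at day 14 and 1.19 at day 21, so its size depends on the scaling. The day-14 call was lost with median-of-ratios factors (adjusted p = 0.0651), with DESeq2 (0.0675) and with no filter on low counts (0.0631). It was also lost when 9 of the 12 libraries were left out singly, with adjusted p between 0.00976 and 0.153. Those were the 3 controls, the 3 day-14 libraries, day-5 replicates 1 and 3 and day-21 replicate 1. The day-21 call held in each of those 12 fits, with a log2 fold change between 0.54 and 0.80.

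**Figure D1:**
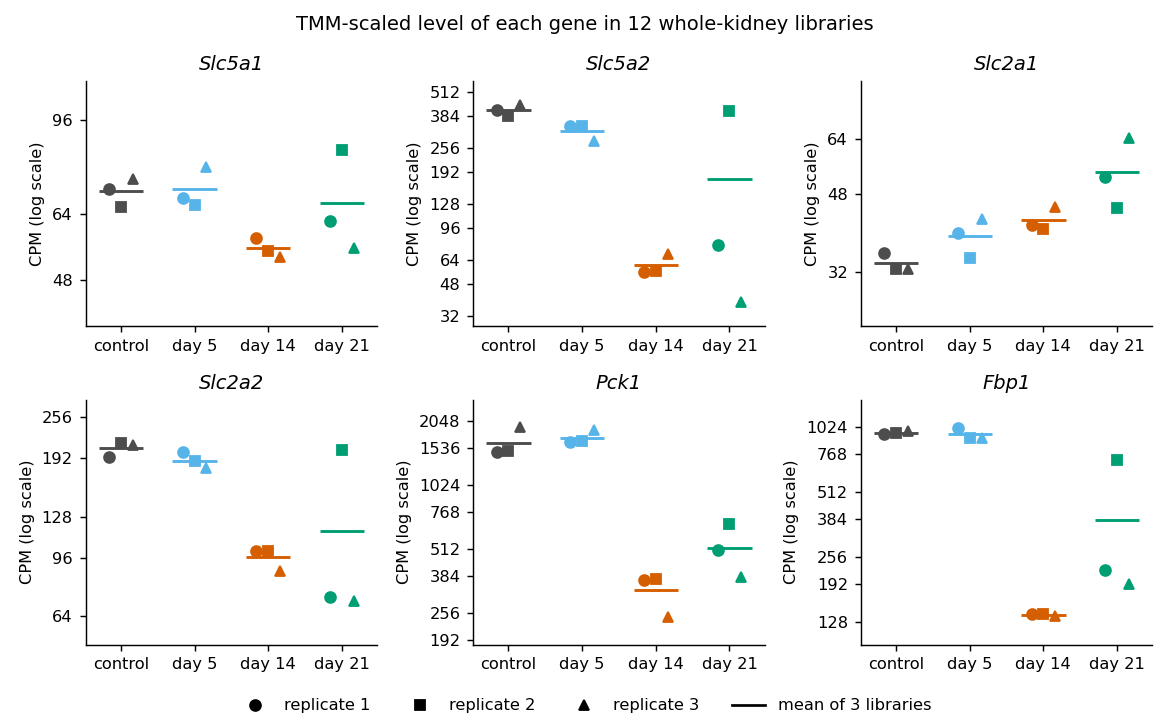
Level of each gene in each library, in TMM-scaled CPM on a log axis, by group, with the shape giving the replicate and the line the mean of 3 libraries. Slc5a2, Slc2a2, Pck1 and Fbp1 lie below all controls at day 14, and day-21 replicate 2 (square) is at the control level for Slc5a2 (407 CPM) and Slc2a2 (204 CPM).

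Pck1 (ENSMUSG00000027513, chr2:172994841-173001066) was the most abundant of the 6 in controls and fell at day 14 and day 21. Its level was 1467, 1477 and 1912 CPM in controls and 1624, 1646 and 1866 CPM at day 5. It was 369, 371 and 247 CPM at day 14 and 507, 673 and 381 CPM at day 21. All day-14 and day-21 libraries lay below all controls, and day-21 replicate 2 was here closer to its group than to the controls. The change was 0.08 ± 0.23 at day 5 (adjusted p = 0.853), -2.30 ± 0.24 at day 14 (adjusted p = 3.50e-05) and -1.64 ± 0.23 at day 21 (adjusted p = 0.00101). The day-21 value was -1.87 ± 0.20 without day-21 replicate 2, with an adjusted p of 7.09e-06. Both calls held in each of the 12 fits that left out 1 library.

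Fbp1 (ENSMUSG00000069805, chr13:63012567-63036096, minus strand) fell about as far as Slc5a2 at day 14. Its level was 953, 965 and 988 CPM in controls and 1021, 915 and 918 CPM at day 5. It was 139, 140 and 136 CPM at day 14 and 224, 720 and 193 CPM at day 21. The 3 day-14 libraries differed by a few CPM and lay far below the controls, while at day 21 replicate 2 lay between the others and the controls. The change was -0.03 ± 0.39 at day 5 (adjusted p = 0.974), -2.81 ± 0.42 at day 14 (adjusted p = 0.00026) and -1.35 ± 0.40 at day 21 (adjusted p = 0.0206). Without day-21 replicate 2 the day-21 change was -2.22 ± 0.08 (adjusted p = 2.91e-09). With that replicate kept, the day-21 call was lost without control replicate 3 (adjusted p = 0.0523), day-21 replicate 1 (0.0703) or day-21 replicate 3 (0.0616). In a whole kidney, fewer cells of a type and less RNA per cell cannot be told apart, for this and every gene here.

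As a count, 0 of the 6 were called at day 5 by edgeR, where 9.77% of the 19821 tested genes were called higher and 5.09% lower. DESeq2 and limma-voom called 0 of the 6 too, beside 3833 and 2799 of all genes. By edgeR, 0 of the 6 had an unadjusted p under 0.05. At day 14, 1 was called higher and 5 lower, beside 31.2% and 28.8% of all genes. At day 21, 1 was called higher and 2 lower, beside 24.3% and 18.5%. The median log2 fold change of the 6 was -0.01 at day 5, -1.70 at day 14 and -1.03 at day 21, against 0.00, 0.08 and 0.07 over all tested genes. Without day-21 replicate 2, all 6 were called at both later stages, 1 higher and 5 lower each time with TMM scaling, and none at day 5. That fit called 65.6% of all genes at day 14, 61.6% at day 21 and 32.3% at day 5, in either direction. Scaling to library totals alone raised the median of all genes by 0.73 at day 14 and 0.48 at day 21. With that scaling the higher calls made up 85.6% of all calls at day 14, against 52.1% with TMM, and 88.3% against 56.8% at day 21.

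**Figure D2:**
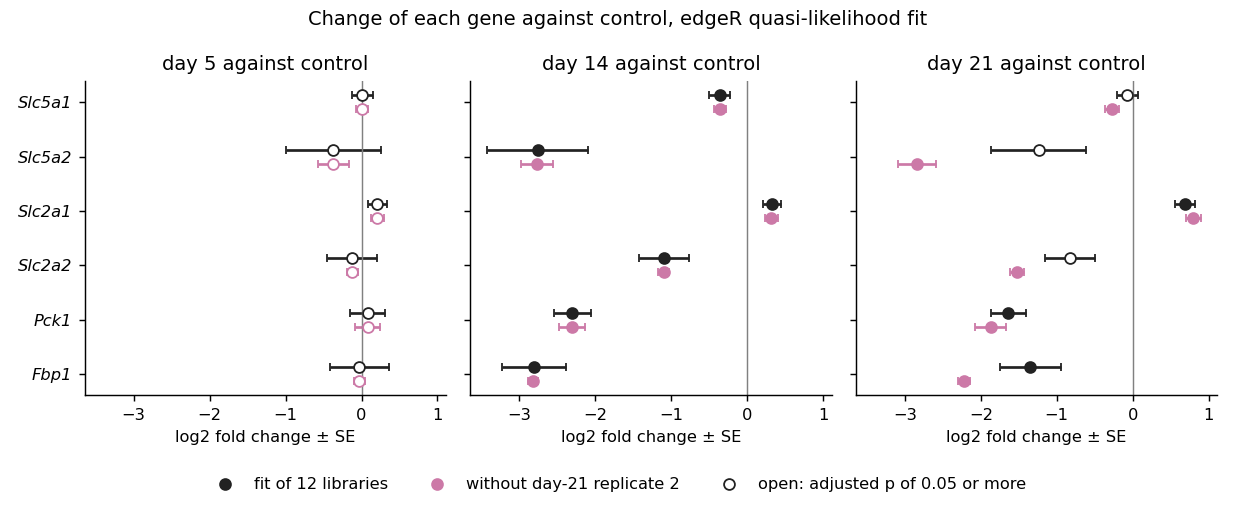
Log2 fold change against control for each gene at day 5, day 14 and day 21, with its standard error, in the fit of 12 libraries (black) and without day-21 replicate 2 (pink), open where the adjusted p was 0.05 or more. The day-21 values of Slc5a2, Slc2a2 and Fbp1 are those most changed by leaving out that library, as from -1.24 to -2.84 for Slc5a2.

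The other comparisons set the toxin groups against each other. From day 5 to day 14, 5 of the 6 genes were called lower and none higher with TMM scaling, beside 24.7% of all genes higher and 26.1% lower. Fbp1 changed by -2.78 ± 0.42 (adjusted p = 0.000563), Slc5a2 by -2.39 ± 0.66 (0.0115), Pck1 by -2.38 ± 0.24 (6.61e-05) and Slc2a2 by -0.97 ± 0.33 (0.03). Slc5a1 was at -0.37 ± 0.14 with TMM (adjusted p = 0.044) and at 0.22 with library totals alone (0.0664). That call was lost in 9 of the 12 fits that left out 1 library, each of the control, day-5 and day-14 libraries, with adjusted p up to 0.151, and with no filter on low counts (0.0575). The same 5 were called without day-21 replicate 2, in a fit that called 59.6% of all genes. With it kept, the Slc2a2 call was lost when any 1 of the 6 libraries of these groups was left out, with adjusted p up to 0.0876, and with library totals alone, at -0.38 (0.158). Slc2a1 was at 0.12 ± 0.12 (adjusted p = 0.446), which did not pass the test, and with library totals alone it was called higher, at 0.70 (0.00943).

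From day 14 to day 21, Fbp1 was the 1 gene called by edgeR with all 12 libraries, beside 7.03% of all genes higher and 7.57% lower. It was higher at day 21 by 1.46 ± 0.40 (adjusted p = 0.0348) and by 0.60 ± 0.08 without day-21 replicate 2 (0.000552). The call was lost when any 1 of the 9 control, day-5 or day-14 libraries was left out, with adjusted p up to 0.11. Slc2a2 was at 0.27 ± 0.33 (adjusted p = 0.605) with all libraries and at -0.42 ± 0.08 without day-21 replicate 2 (0.00508), so 1 library set its direction. Slc2a1 was at 0.36 ± 0.12 (adjusted p = 0.0733) and Pck1 at 0.66 ± 0.23 (0.0733). Without day-21 replicate 2, Slc2a1 was called higher, at 0.48 ± 0.10 (0.00687), and Pck1 was at 0.43 ± 0.18 (0.11). That fit called 23.9% of all genes. With all libraries DESeq2 called both higher (adjusted p = 0.0494 and 0.0223), beside 4273 of all 19821 genes. For day 21 against day 5, Slc2a1 was called higher, at 0.48 ± 0.12 (adjusted p = 0.0201), and Pck1 and Fbp1 lower, at -1.72 ± 0.23 (0.00145) and -1.33 ± 0.40 (0.0325). In that comparison 15% of all genes were called higher and 11.8% lower. Leaving out day-21 replicate 2 called all 6, Slc2a1 higher at 0.59 ± 0.10 and the others lower, from -0.29 ± 0.09 for Slc5a1 (0.22 with all libraries scaled to library totals alone) to -2.47 ± 0.24 for Slc5a2, where 55.6% of all genes were called. The Fbp1 call was lost in 8 of the 12 fits that left out 1 library and the Slc2a1 call in 3.

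Per kilobase of the gene length in the count table, the order of the mean levels in controls was Pck1, Slc5a2, Fbp1, Slc2a2, Slc5a1 and Slc2a1. The means were 472, 142, 134, 35.8, 17.2 and 9.53 CPM per kilobase. Slc5a2 and Fbp1 overlapped across the 3 controls, and no other neighbours did. At day 14 the order was the same, but the range had narrowed, with 95.9 for Pck1, 20.8 for Slc5a2, 19.1 for Fbp1, 16.7 for Slc2a2, 13.4 for Slc5a1 and 11.9 for Slc2a1. The Slc5a2 and Fbp1 values overlapped at that stage too, and the highest Slc2a1 library, 12.8, was just under the lowest Slc5a1 library, 12.9. In day-21 replicates 1 and 3, Slc2a1 at 15 and 18.3 lay above Slc2a2 at 12.7 and 12.3. These orders rest on the lengths used, such as 7214 bases for Fbp1 and 2897 for Slc5a2. Without division by length, Fbp1 was above Slc5a2 in controls, at means of 969 and 410 CPM.

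Ratios within a library do not depend on the scaling. The log2 ratio of Slc5a1 to Slc5a2 counts was -2.54 ± 0.01 in controls (SD, n = 3), which is close to the same value in each control. It was -2.29, -2.34 and -1.84 at day 5, and 0.05, -0.04 and -0.39 at day 14, where the transcripts of SGLT1 and SGLT2 were near equal in counts. At day 21 it was -0.32 and 0.53 in replicates 1 and 3 and -2.27 in replicate 2. All day-5, day-14 and day-21 values lay above all controls. With 3 values against 3 an exact permutation test cannot reach 0.05, so the ratios are given without a test.

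The log2 ratio of Slc2a1 to Slc2a2 moved the same way. It was -2.45, -2.72 and -2.70 in controls and -2.36, -2.45 and -2.08 at day 5. It rose to -1.30, -1.34 and -0.97 at day 14 and was -0.48, -2.20 and -0.15 at day 21. The day-14 and day-21 ratios lay above all controls, and the day-5 ratios touched the control range. The ratio of Pck1 to Fbp1 varied less, from 0.61 to 0.95 in controls, 0.67 to 1.02 at day 5 and 0.86 to 1.41 at day 14. Its values at day 21 were 1.18, -0.10 and 0.98, and that of day-21 replicate 2 was the lowest of the 12.

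**Figure D3:**
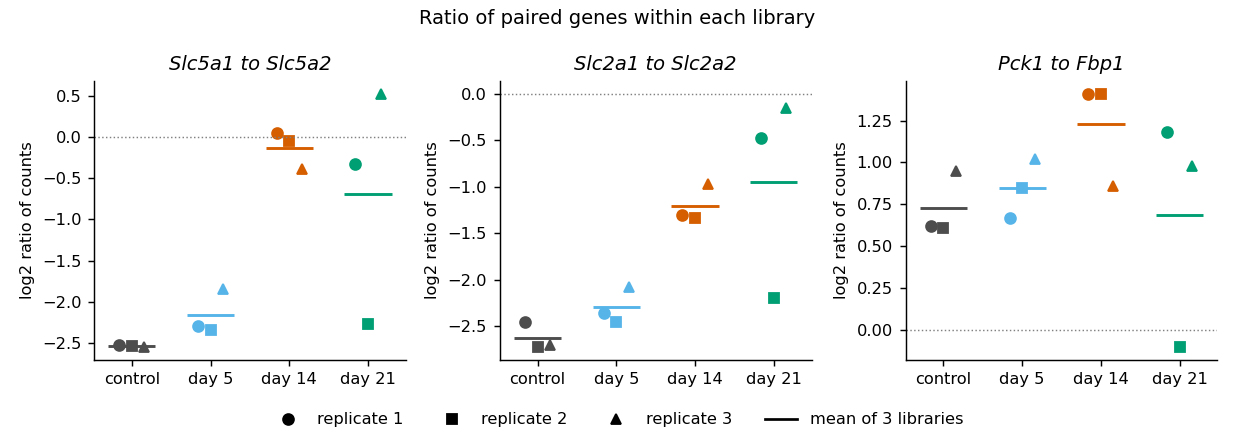
Log2 ratio of counts of paired genes within each library by group, with the shape giving the replicate and the line the mean of 3 libraries; a ratio of 0 (dotted) means equal counts. The ratio of Slc5a1 to Slc5a2 goes from -2.54 in controls to near 0 at day 14, and day-21 replicate 2 is at -2.27.

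Day-21 replicate 2 did not sit at 1 place for all 6 genes. Against the control mean on the log2 scale it was at -0.01 for Slc5a2 and Slc2a2, at 0.26 for Slc5a1 and at 0.42 for Slc2a1. For Fbp1 it was at -0.43, and for Pck1 at -1.26. In that kidney Slc5a2 and Slc2a2 were thus at the control level, and Pck1 was not. Against the mean of day-21 replicates 1 and 3 it was higher by 2.90 for Slc5a2, 1.79 for Fbp1, 1.50 for Slc2a2, 0.61 for Pck1 and 0.52 for Slc5a1, and at -0.38 for Slc2a1.

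Across the 12 libraries, the log2 levels of Slc5a2, Slc2a2, Pck1 and Fbp1 went together, with Pearson r between 0.86 and 0.96 for the pairs among them. Slc2a1 went the other way, with r of -0.60 to -0.78 against those 4. Leaving out day-21 replicate 2 gave 0.92 to 0.99 and -0.63 to -0.85. These values are across libraries that share their group differences, and are given as a description. Among 13642 genes whose mean log2 CPM was 1 or more, the 3 most like Slc5a2 by r were A4gnt (0.994), Slc5a12 (0.993) and Slc34a3 (0.992). For Slc2a2 they were Pter, Ahcyl2 and Cyp2j5, each at 0.994. For Fbp1 they were Gpx3 (0.998), Fth1 (0.997) and Gm12033 (0.996), and for Pck1 they were Umod (0.987), Ints2 (0.986) and Gpam (0.986). Slc2a1 was most like P2ry14 (0.972), Nkap (0.958) and Babam2 (0.955), and among the 3 most like Slc5a1 were Senp2 (0.917) and Cnot11 (0.907).

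The other genes of these pathways were counted from lists chosen for their role. Counts here and for the marker lists below stand beside the shares of all tested genes. With all libraries, 9.77% were called higher and 5.09% lower at day 5. These shares were 31.2% and 28.8% at day 14, and 24.3% and 18.5% at day 21. Without day-21 replicate 2, 32.3%, 65.6% and 61.6% were called in either direction. With library totals alone, 85.6% of calls were higher at day 14 and 88.3% at day 21. Of 9 other sodium-coupled sugar transporters and their partners, 7 were tested, and Slc5a4a and Slc5a4b were too low. At day 5, 1 was higher and none lower. At day 14, 0 were higher and 6 lower, and at day 21, 0 and 3. Leaving out day-21 replicate 2 gave 2 higher and 3 lower at day 5, 0 and 6 at day 14, and 1 and 5 at day 21. With library totals alone, 4 were lower at day 14, and 2 were higher and 2 lower at day 21. Slc5a11 fell by 1.67 ± 0.25 at day 14 (adjusted p = 0.000269), Slc5a9 by 2.33 ± 0.36 (0.000351) and Pdzk1ip1, which encodes MAP17, an activator of SGLT2, by 0.91 ± 0.15 (0.000415). The Pdzk1ip1 call was lost with library totals alone, at -0.18 (adjusted p = 0.18). At day 5 Sgk1, a kinase that raises the activity of several sodium transporters, rose by 1.74 ± 0.28 (adjusted p = 0.00204). Its level was 64.5, 62.8 and 110 CPM in controls and 241, 292 and 258 CPM at day 5.

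Of 9 other facilitative hexose transporters, 0 were higher and 3 lower at day 5, 3 and 5 at day 14, and 2 and 5 at day 21. These counts were 2 and 6, 3 and 5, and 2 and 5 without day-21 replicate 2, and with library totals alone the day-21 counts were 4 and 3. Slc2a5, the fructose transporter of the late proximal tubule, fell by 3.73 ± 0.42 at day 14 (adjusted p = 5.96e-05), from 79.1, 70.5 and 85.8 CPM in controls to 6.35, 5.72 and 5.7 CPM. Slc2a9, a urate transporter, fell by 1.20 ± 0.12 (2.94e-05). Slc2a13, a transporter of myo-inositol, fell by 1.22 ± 0.17 (0.000192). Slc2a6 was higher by 4.24 ± 0.63 at day 21 (adjusted p = 0.00129), from 0.119 to 0.211 CPM in controls to 3.27, 0.77 and 4.65 CPM, and by 4.68 ± 0.34 without day-21 replicate 2. At day 5 Slc2a4, the insulin-sensitive GLUT4, was at -1.16 ± 0.17 (adjusted p = 0.00137).

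Of 15 other genes of gluconeogenesis and glucose release, 14 were tested, and G6pc2 was too low. At day 5, 1 was higher and 2 lower, at day 14, 2 and 12, and at day 21, 2 and 10. Without day-21 replicate 2 these counts were 3 and 7, 2 and 12, and 2 and 12, and with library totals alone the day-14 counts were 3 and 9. Slc25a10, the mitochondrial dicarboxylate carrier, fell at day 14 by 1.82 ± 0.14 (adjusted p = 7.17e-06). Slc25a11, the oxoglutarate carrier, fell by 1.32 ± 0.15 (6.71e-05). Slc37a4, which moves glucose 6-phosphate into the endoplasmic reticulum, fell by 2.36 ± 0.32 (0.000164). Fbp2, the isoform of fructose bisphosphatase best known from muscle, rose by 1.01 ± 0.12 at day 21 (adjusted p = 0.000422), to 24.6, 22.6 and 28.5 CPM from 11.7, 13.2 and 12.6 CPM, while Fbp1 was lower. That rise was 1.08 ± 0.11 without day-21 replicate 2.

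G6pc (G6pc1 in current naming) encodes glucose 6-phosphatase, which frees glucose in the last step. It was the 1 gene of this list that was higher at day 5, by 1.00 ± 0.29 (adjusted p = 0.0388). Its level was 221, 373 and 391 CPM in controls, 619, 725 and 622 CPM at day 5, 93.8, 95.7 and 80 CPM at day 14 and 102, 200 and 94.8 CPM at day 21. The day-5 libraries lay above all controls and the day-14 and day-21 libraries below all of them. At day 21 the change was -1.31 ± 0.29 (adjusted p = 0.00666), and -1.75 ± 0.21 without day-21 replicate 2. In the same kidneys, at day 5, the levels of Pck1 and Fbp1 overlapped those of the controls.

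Of 16 genes that bring substrates into gluconeogenesis, 1 was higher and none lower at day 5, 2 and 13 at day 14, and 1 and 10 at day 21. Leaving out day-21 replicate 2 gave 3 and 9, 3 and 13, and 1 and 12, in a fit that called 32.3%, 65.6% and 61.6% of all genes. With library totals alone the day-21 counts were 4 and 9. Slc16a1, the lactate and pyruvate transporter MCT1, was higher at day 5 by 2.39 ± 0.14 (adjusted p = 9.82e-06), with 105, 101 and 97.7 CPM against 18.9, 23.3 and 15.9 CPM in controls. At day 14 Hpd, an enzyme of tyrosine breakdown, fell by 6.80 ± 0.49 (adjusted p = 5.30e-06), from 37 to 41.4 CPM to 0.292 to 0.386 CPM. Slc38a3, a glutamine transporter, fell by 2.11 ± 0.26 (9.75e-05), and Prodh2, an enzyme of hydroxyproline breakdown, by 2.53 ± 0.35 (0.000185).

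**Figure D4:**
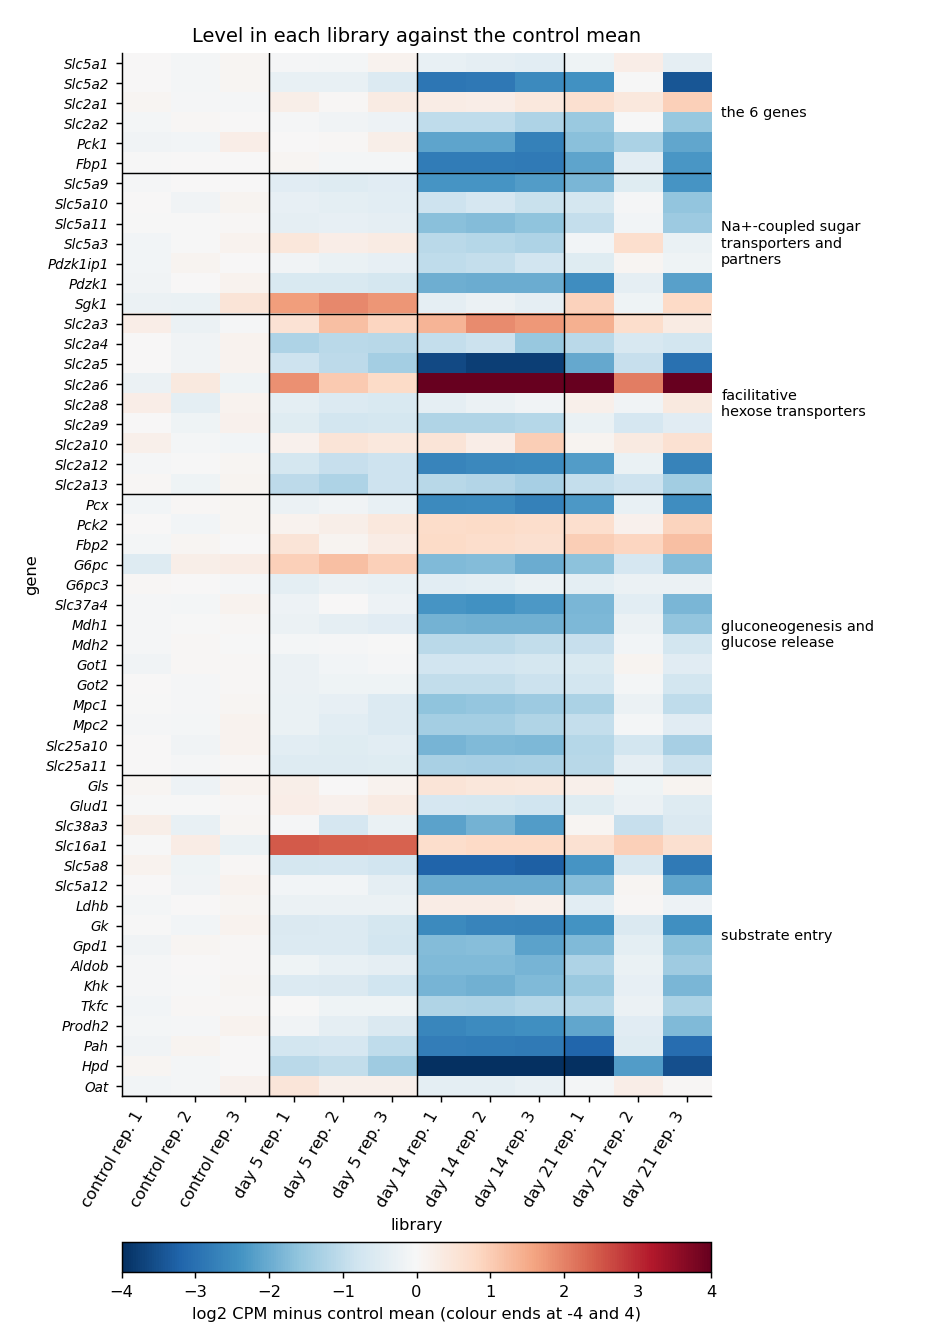
Log2 CPM minus the control mean in each library (columns) for the 6 genes and the tested genes of 4 of the lists (rows), from blue for lower to red for higher, with the colour ending at -4 and 4. Most rows are blue at day 14, day-21 replicate 2 is paler than its group, and G6pc and Slc16a1 are red at day 5 with log2 fold changes of 1.00 and 2.39.

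Among 19 transcription factors and hormone signalling genes known to act on this pathway, 2 were higher and 3 lower at day 5, 1 and 12 at day 14, and 1 and 12 at day 21. Without day-21 replicate 2 these counts were 2 and 6, 2 and 12, and 1 and 14. With library totals alone they were 2 and 2 at day 5, 8 and 6 at day 14, and 5 and 3 at day 21, so the lean to lower values depends on the scaling. Ppargc1a, a coactivator of mitochondrial and gluconeogenic genes, fell by 1.41 ± 0.15 at day 14 (adjusted p = 4.23e-05). Irs1, a substrate of the insulin receptor, was at -0.87 ± 0.12 (0.000167), and at -0.15 with library totals alone (0.29). At day 5 Foxo3 was higher by 0.76 ± 0.16 (adjusted p = 0.00823), and Nr3c1, the glucocorticoid receptor, was at -0.45 ± 0.08 (0.005), and at -0.30 with library totals alone (0.0807).

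Most markers of the proximal tubule fell at day 14, as most of these genes did, while markers of injured tubule and of macrophages rose. All 5 markers of the first proximal segment (S1), a list that includes Slc5a2, were lower at day 14, as were all 3 of the S2 segment and 5 of 6 of the S3 segment. Their medians were -2.89, -2.91 and -5.98 on the log2 scale, beside -1.70 for the 6 glucose genes. All 15 proximal tubule markers outside glucose handling were lower at day 14, and their summed level ran from 48763 to 58450 CPM in controls, 34747 to 38288 CPM at day 5, 3236 to 3382 CPM at day 14 and 3146 to 32473 CPM at day 21. At day 21 it was 4214 and 3146 CPM in replicates 1 and 3 and 32473 CPM in replicate 2. Much of that sum is Kap, an abundant androgen-regulated transcript, with a mean of 30319 CPM in controls and 21269 CPM at day 5. The list's median at day 5 was -0.51, with 1 of 15 called lower, and 11 of 15 without day-21 replicate 2, beside a median of -0.01 for the 6 genes. At day 21, 10 of 15 were lower, and 15 of 15 without that library. At day 14, leaving it out changed none of the counts given for these 4 lists. The lists share genes, so their counts are not independent. Slc34a1 and Slc6a19 are in the S1 list and in the list of 15, which also holds all 3 S2 markers. Slc5a12 is in the S1 list and among the genes of substrate entry. Slc4a1 is counted below both as an erythroid and as a collecting duct marker.

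Markers of injured tubule rose, 5 of 7 at day 5 and 7 of 7 at day 14 and day 21. Their summed level was 103 to 109 CPM in controls, 475 to 698 CPM at day 5, 2312 to 2358 CPM at day 14 and 460 to 1447 CPM at day 21. Of 10 macrophage markers, 3 were higher and 1 lower at day 5, 10 were higher at day 14 and 9 at day 21. From controls to day 21 their sums were 83.4 to 110, 109 to 122, 920 to 954 and 263 to 533 CPM. In both lists the lowest day-21 sum was that of replicate 2. Replicates 1 and 3 had 1233 and 1447 CPM for injured tubule, and 533 and 447 CPM for macrophages. Without day-21 replicate 2 the day-5 counts were 7 of 7 higher for injured tubule, and 7 higher and 1 lower for macrophages, and those of day 14 and day 21 did not change. Of 6 erythroid markers, all were lower at day 14, with a sum of 16.7 to 146 CPM against 833 to 1596 CPM in controls, and all were lower without day-21 replicate 2 too. Their part in the results for the 6 genes was not tested.

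Of 10 markers of the loop, distal tubule and collecting duct, 0 were higher and 8 lower at day 14, with sums of 2559 to 2807 CPM against 5830 to 6230 CPM in controls. The count was 9 lower without day-21 replicate 2, and 1 higher and 5 lower with library totals alone. Of 7 endothelial markers 5 were lower at day 14, with and without that library, though with library totals alone most of these had log2 fold changes above 0. Of 6 podocyte markers 5 were lower at day 5 (6 without day-21 replicate 2), with sums of 83.9 to 101 CPM against 279 to 299 CPM, and none of them was at 0 in any group. Of 9 markers of liver, intestine and adrenal gland, tissues that also use some of the 6 genes or lie beside the kidney, 6 were tested and their sum was 238 to 248 CPM in controls, 242 to 264 CPM at day 5, 130 to 135 CPM at day 14 and 97 to 162 CPM at day 21. At day 14, 1 was higher and 4 lower, with and without day-21 replicate 2. Most of the sum is Vil1, which proximal tubule also expresses, at 187 ± 12.3 CPM in controls (SD, n = 3). The 1 that was higher is Fabp1, at 2.24 ± 0.42 at day 14 (adjusted p = 0.000993) and 3.30 ± 0.42 at day 21 (0.000657), from a mean of 0.547 CPM in controls to 2.6 and 5.4 CPM. Fabp2 and Cyp11b2, markers of intestine and of adrenal gland, were at 0 in controls, at day 5 and at day 14. At day 21 only Cyp11b2 was at 0. Star and Cyp11b1, of the same list, were low but above 0, with means of 0.584 and 0.0702 CPM in controls.

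**Figure D5:**
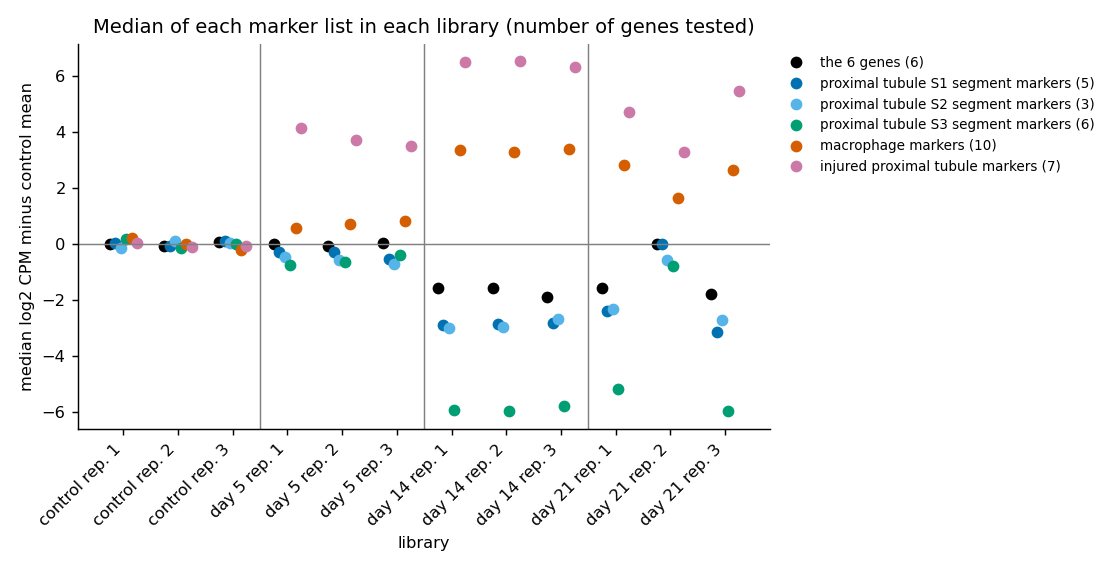
Median log2 CPM minus the control mean over the tested genes of 6 lists in each library, with the number of genes in brackets. At day 14 the 6 glucose genes lie between -1.57 and -1.89, the S1 segment markers between -2.83 and -2.91, and the macrophage and injured tubule markers above 3; day-21 replicate 2 is at -0.01 for the 6 genes and for the S1 markers, where the S1 median is the value of Slc5a2 itself, a gene of both lists.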

How the data were processed

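Poly(A)-selected RNA of whole kidney was sequenced in 12 libraries, 3 per group, all with 1 batch label. The authors deposited a table of raw counts per gene, made with fastp 0.20.0 and featureCounts on GRCm39 per the submitters' processing notes. The aligner, annotation release, strand setting and handling of multiply matching reads were not given there or in the labels. Rows without a symbol numbered 2803 and held 2.14% of counts. They were tested but not named.

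Genes were tested with edgeR 4.0.16 (R 4.3.3) by a quasi-likelihood fit of all 12 libraries with 1 coefficient per group, after filterByExpr, which left 19821 genes, and TMM scaling. P-values were adjusted by Benjamini-Hochberg over all tested genes and called under 0.05. The standard error is the absolute log2 fold change over the square root of F, and log2 CPM used a prior count of 2. The fit was tested on simulated data in which 200 genes were changed at day 5 alone. Those data held no outlying library and no large difference in composition between groups, so the test does not cover these features.

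The 6 genes, the other lists and the alternatives were chosen with earlier results of these data known. All 6 were named in each comparison, and from each pathway list the 3 genes with the smallest adjusted p against control, of which not all are printed. A few genes that these rules name are not reported here. Alternatives were median-of-ratios factors, library totals, no low-count filter, DESeq2 1.42.0, limma 3.58.1 voom, the 6 libraries compared, a replicate block and leaving out each library. No pair of libraries of 1 group was identical. The smallest chi-square between 2 of them was 4.59 per degree of freedom, above sampling noise. That pair was day-14 replicates 1 and 2, which were closer than any other, the next smallest value being 11.7 for control replicates 1 and 3. Replicates are called biological in the design text, and nothing more is said of how they were kept or extracted.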

Additional observations from a re-analysis of the deposited data

Results flagged for a closer look

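These results are listed because the toxin groups differed from each other in a direct test of the difference, with edgeR's quasi-likelihood test and adjusted p under 0.05. All of these are log2 fold changes. From day 5 to day 14 they were -0.37 for Slc5a1 with TMM scaling (0.22 with library totals alone), -2.39 for Slc5a2, -0.97 for Slc2a2, -2.38 for Pck1 and -2.78 for Fbp1. From day 14 to day 21 the value was 1.46 for Fbp1. From day 5 to day 21 they were 0.48 for Slc2a1, -1.72 for Pck1 and -1.33 for Fbp1. Leaving out 1 library lost the day 14 to day 21 call of Fbp1 in 9 of 12 fits. It lost the day 5 to day 21 calls of Fbp1 in 8 and of Slc2a1 in 3. Fits of the 6 libraries compared lost these 3 calls too (edgeR adjusted p = 0.187, 0.153 and 0.115). The day 5 to day 14 calls of Slc5a1 and Slc2a2 were lost in 9 and 6 of the 12 fits that left out 1 library. Groups of 3 libraries are too small to look for single outlying libraries by the gap to their neighbours.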

How the results depend on the processing

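With library totals alone Slc5a1 changed direction, to 0.37 at day 14 and at day 21 against control and to 0.22 at day 14 against day 5. Slc2a2 at day 21 against day 14 ran from -0.42 (without day-21 replicate 2) to 0.53 (without day-21 replicate 3) when 1 library was left out. A fit of the 6 libraries compared called 6982 genes at day 5, 1631 at day 21, 263 for day 21 against day 14 and 506 for day 21 against day 5, and 1, 2, 0 and 1 of the 6 genes. Limma-voom called 5 of the 6 at day 21, beside 8566 of all 19821 tested genes. DESeq2 called 3 of the 6 for day 21 against day 14, beside 4273 of all 19821. The cause was not tested.

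Leaving out 1 library gave 1570 to 6691 genes called at day 5, 10405 to 13572 at day 14, 4918 to 12738 at day 21, 7941 to 12330 for day 14 against day 5, 852 to 4951 for day 21 against day 14 and 2089 to 11506 for day 21 against day 5. Of the 6 genes it gave 0 to 0, 4 to 6, 2 to 6, 3 to 5, 0 to 4 and 1 to 6, in the same order. The replicate numbers showed no sign of pairing the libraries. Deviations of same-numbered libraries correlated at -0.14 to 0.17, and 1 of 12 libraries correlated best with its own number. With 3 libraries per group this check cannot decide whether same-numbered kidneys were handled together, and the labels do not say. The replicate block called 2653, 11673 and 8218 genes at day 5, day 14 and day 21. For day 21 against day 14 it called 2211 genes, and none of the 6. With the block, Slc5a1 was no longer called at day 14 against control (adjusted p = 0.0652) or day 5 (0.0672), nor Fbp1 at day 21 against day 14 (0.0596), and Slc2a2 was called at day 21 (0.0366). The 6 genes had 1053 to 77324 counts per library, so none was near the limit of detection.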
